A study of Mus musculus with 48 samples.

Results

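The hnRNP H/F family was followed in striatal RNA of mice carrying a 112 kb congenic segment and of C57BL/6J (B6) wild-type littermates. Its members are Hnrnph1, Hnrnph2, Hnrnph3, Hnrnpf and Grsf1, taken by symbol as 5 of the 23420 genes of the gene table and by Ensembl identifier as 113 of the 368092 exon bins of the exon table. Each exon bin is a piece of exon that a fixed set of annotated transcripts covers. Bins 1 to 7 of Hnrnph1 (ENSMUSG00000007850) are its 5′ leader, the untranslated start of the transcript. There were 8 congenic mice and 8 wild-type mice, with 4 of each sex labelled in each genotype, aged about 50 days. Striatal punches of 3 mm from both sides were pooled for each mouse, and each library was run on 3 lanes, which were summed. As background, the congenic segment is DBA/2J sequence on chromosome 11 that contains Hnrnph1, placed on a B6 genome. Differential splicing between the genotypes is the subject that the series title states.

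The hnRNP H/F proteins bind runs of G in RNA through quasi-RNA recognition motifs. Bound in exons or introns, they promote or block the use of nearby splice sites, and they also act in polyadenylation. Hnrnph1 encodes the most studied member. Hnrnph2 is its close X-linked relative, Hnrnph3 encodes a shorter relative, and Hnrnpf encodes hnRNP F, which binds the same kind of sequence. Grsf1 encodes a related G-rich binding protein that acts mostly in the RNA granules of mitochondria, where it takes part in processing and decay of mitochondrial transcripts.

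The Hnrnph1 gene occupies chr11:50190492-50200030 on the plus strand of NCBIM37 (mm9), with 48 bins from 18 annotated transcripts. Its leader has 2 starting regions. Bins 1 and 2, of 158 and 127 bases, belong to a single transcript model that starts upstream. Bins 3 to 6, of 32, 14, 4 and 34 bases, are nested starts of the proximal first exon, and bin 7, of 10 bases, is the leader part of the exon that holds the start codon. The 250 bases before each start are shown because the counts of the leader differ between the starts. They are reference sequence of the NCBIM37 genome, plus strand, 5′ to 3′, at chr11:50190242-50190491 and chr11:50190971-50191220, and were not read from the mice. Capitals mark CGCATGCG, the core of the NRF1 motif, which reads alike on both strands, and GGGCGG or its reverse complement CCGCCC, the GC box of SP-family factors; the motifs do not overlap.
Upstream of bin 1: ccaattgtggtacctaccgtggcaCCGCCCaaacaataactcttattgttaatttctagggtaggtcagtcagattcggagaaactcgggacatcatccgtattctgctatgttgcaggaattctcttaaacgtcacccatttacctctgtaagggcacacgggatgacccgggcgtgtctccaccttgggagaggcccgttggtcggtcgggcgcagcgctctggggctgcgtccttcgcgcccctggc
Upstream of bin 3: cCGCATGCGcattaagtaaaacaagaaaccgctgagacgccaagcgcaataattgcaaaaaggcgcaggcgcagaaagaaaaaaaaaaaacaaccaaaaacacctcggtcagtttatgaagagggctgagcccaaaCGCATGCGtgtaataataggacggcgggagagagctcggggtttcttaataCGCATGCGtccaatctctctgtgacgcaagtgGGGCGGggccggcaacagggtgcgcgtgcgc
The window before the proximal start held 3 copies of CGCATGCG and 1 GC box. The window before the distal start held 0 copies of CGCATGCG and 1 GC box. Among 32817 RefSeq promoters (GRCm38.p6), cut to the same 250 bases, 1.54% held CGCATGCG and 32.7% held a GC box. The proximal window held 21 CpG dinucleotides and the distal window 17, where the median promoter held 6. A match is a description of letters and not a site of binding.

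Library totals over the 3 lanes were 73.1 to 82.0 M counts in the gene table and 118.5 to 133.2 M in the exon table (M for the mega prefix). Striatal projection neuron genes were at high levels. Ppp1r1b, which encodes a phosphoprotein regulated by dopamine, averaged 1956 ± 211 CPM (counts scaled to a library of 1e+06) in congenic mice, against 1979 ± 241 CPM in wild-type ones (SD, n = 8 each). Genes of cortical excitatory neurons varied between punches, with Slc17a7, the vesicular glutamate transporter, at 20.7 to 186 CPM over the mice. A score of 10 such genes, the centred mean log2 CPM, had a median of -0.45 in congenic mice (range -1.44 to 1.02), against 0.42 in wild-type mice (range -0.61 to 0.94). By genotype 0 of the 10 genes were above 0, with a median log2 fold change of -0.43 beside 0.001 over all genes, and 0 were called. Wild-type mouse Sample_4806 is labelled female, but Xist, the RNA of the inactive X chromosome, was at 2.64 CPM there, against 951 to 1549 CPM in the other 7 mice labelled female. Comparisons of members by sex are therefore given with and without it. The punches are bulk tissue, so fewer cells of a type and less RNA per cell cannot be told apart.

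Transcript levels of the 5 members did not differ detectably between congenic and wild-type mice. Hnrnph1 was at 333 CPM in the lowest, 361 in the median and 393 in the highest congenic mouse, against 327, 358 and 388 CPM in wild-type mice. The ranges overlapped almost completely. The log2 fold change, congenic over wild-type, was 0.01 (SE 0.04) with a 95% interval of -0.07 to 0.09, and the adjusted p was 0.999 in edgeR's quasi-likelihood test with sex in the model.

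Hnrnph2 was at 143, 151 and 159 CPM (lowest, median and highest) in congenic mice, against 145, 152 and 159 CPM in wild-type mice, and the groups overlapped. Its log2 fold change was -0.02 (SE 0.03). Hnrnpf was at 97.1, 103 and 111 CPM in congenic mice, against 97.6, 105 and 116 CPM in wild-type mice. Here too the groups overlapped, and the log2 fold change was -0.02 (SE 0.04). Hnrnph3, the least abundant member, was at 18.5, 19.2 and 21.1 CPM in congenic mice, against 18.6, 19.97 and 21.4 CPM in wild-type mice. Its log2 fold change was -0.03 (SE 0.04), with overlapping groups. Grsf1 was at 91.4, 95.6 and 101 CPM in congenic mice, against 92.3, 94.6 and 99.7 CPM in wild-type mice. The groups overlapped, and the log2 fold change was 0.02 (SE 0.03).

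The widest 95% interval of the 5 genotype effects, that of Hnrnpf, was -0.10 to 0.07 on the log2 scale. Adjusted p in edgeR was 0.999 for each of these 4 members. None of the 5 was called, and over all 16716 genes tested edgeR called 0 (0%), with 256 at an unadjusted p under 0.05. That last count was 183 to 587 without each mouse in turn, with 587 without congenic mouse Sample_4671, 449 without Sample_4804, 430 without Sample_4677 and 385 without wild-type mouse Sample_4806. With the cortical score as a covariate it was 138, and the genotype effects of the members lay between -0.02 and 0.01 on the log2 scale. DESeq2 and limma-voom also called 0, with 268 and 277 at that level.

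**Figure D1:**
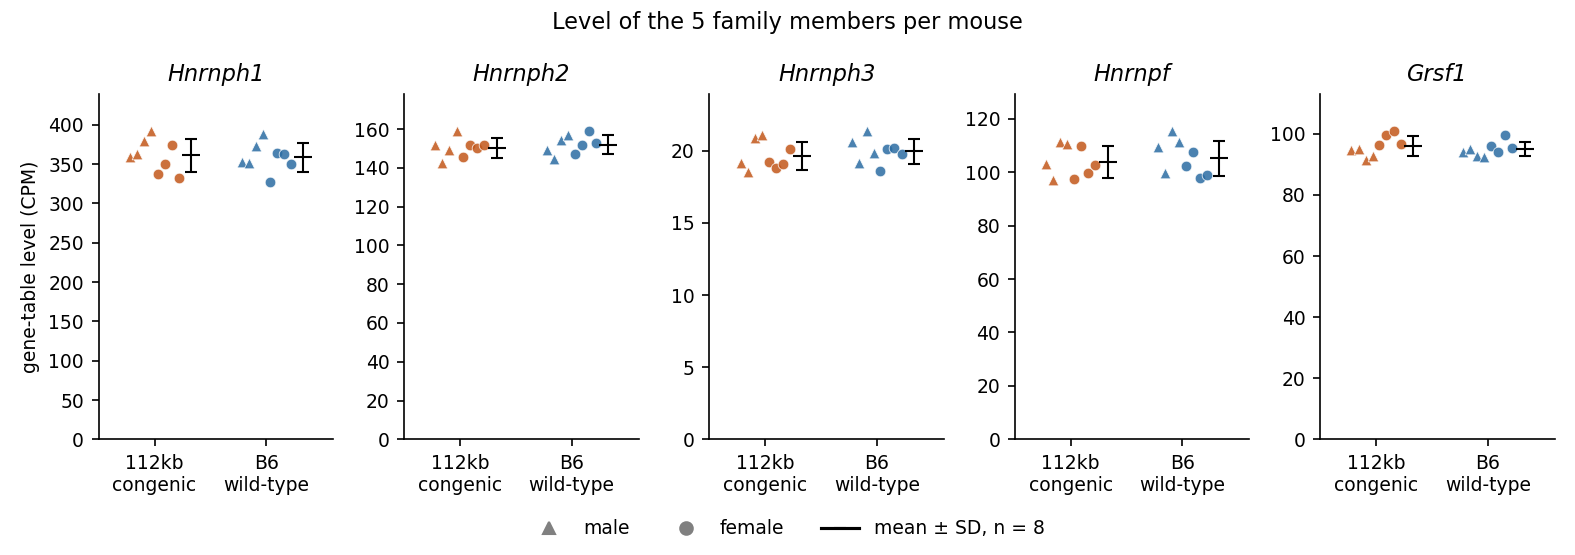
Level of each member in the gene table (CPM, vertical axis from 0) in each of the 8 congenic mice, left, and the 8 wild-type mice, right. Triangles are males, circles are mice labelled female, and the bars beside the points are the mean and 1 SD; in every panel the groups overlap, as with Hnrnph1 at 333 to 393 CPM in congenic and 327 to 388 CPM in wild-type mice.

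The 5 members differed from each other in level far more than the genotypes did. Per kilobase of exon, in the gene table, Hnrnph1 was at 61.6 ± 3.21 CPM per kb over the 16 mice (SD), and its lowest mouse at 56.0 lay above the highest mouse of any other member. Hnrnpf followed with 37.2 ± 2.16 CPM per kb, Hnrnph2 with 34.6 ± 1.10 and Grsf1 with 31.4 ± 0.915 (SD, n = 16 each). The ranges of Hnrnpf, 34.5 to 41.1, and Hnrnph2, 32.6 to 36.4 CPM per kb, overlapped, and so did those of Hnrnph2 and Grsf1, 30.1 to 33.3 CPM per kb. The members were measured in the same mice, and ranges over mice leave this pairing out. Whether these neighbours differed within mice was not tested. The levels rest on the full annotated exon length. The 5842 bases of Hnrnph1 include introns of 1494 and 939 bases that only non-coding models count as exon. The 4369 bases of Hnrnph2 include bin 9, of 1892 bases, at 4.60 counts per base.

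Hnrnph3 came last with 6.28 ± 0.287 CPM per kb (SD, n = 16), but only a part of this gene held counts in the exon table. Of its 21 bins, 16 held 0 counts in all 48 runs, where 11.7% of all exon bins held 0. All 16 overlap annotated exons of Rufy2, a gene on the opposite strand, and the 5 bins that held counts do not. Bin 3 of Hnrnpf also overlaps an exon on the opposite strand, but it held 2826 counts. The reason for the empty bins was not tested. With gene-table counts set over the 772 bases that held counts in the exon table, the level of Hnrnph3 was 25.6 ± 1.17 CPM per kb (SD, n = 16). Whether the gene table also left out the other bases is not known. The place of Hnrnpf depended on the table and the length used. From the coding bins of the exon table, with each bin lengthened by 49 bases for reads that reach over its ends, Hnrnph1 was at 164 ± 9.85 and Hnrnph2 at 45.5 ± 1.83 CPM per kb (SD, n = 16 each). Grsf1 was at 37.6 ± 2.43 and Hnrnpf at 12.1 ± 0.653 on that scale (SD, n = 16 each), and Hnrnph3 at 27.4 with a range of 23.2 to 31.1. Hnrnpf was the only member with more counts in the gene table, 129791, than in the exon table, 71657, and the reason was not tested.

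The members varied little between mice. The biological coefficient of variation fitted by edgeR was 5.88% for Hnrnph1, 5.07% for Hnrnph2, 5.91% for Hnrnph3, 6.19% for Hnrnpf and 4.58% for Grsf1. Of 1983 genes within 0.5 log2 units of the level of Grsf1, 0.353% had a lower value. For Hnrnpf the corresponding share was 39.9% of 1845 genes. Single lanes of the same mouse differed by a log2 SD of 0.02 for Hnrnph1, while mice, each summed over 3 lanes, differed by 0.08. For Hnrnph3 the single lanes differed by 0.09 and the mice by 0.07, and for Grsf1 both values were 0.04. The noise of a sum of 3 lanes is smaller than that of a single lane.

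Male and female mice did not differ past the threshold in any member. Hnrnph1 was at 351, 368 and 393 CPM in males, against 327, 350 and 374 CPM in mice labelled female (lowest, median and highest), with overlapping ranges. The log2 fold change, male over female, was 0.08 (SE 0.04), with p = 0.0516 and an adjusted p of 0.341 in edgeR, where 0.138% of all genes were called. Of all 16716 genes tested, 2464 were at an unadjusted p under 0.05 by sex, and 1730 to 3387 without each mouse in turn. Hnrnpf was at 97.1, 110 and 116 CPM in males, against 97.4, 101 and 110 CPM in females, with a log2 fold change of 0.07 (SE 0.04) and an adjusted p of 0.409 in edgeR.

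Grsf1 lay the other way, at 91.4, 93.4 and 95.1 CPM in males against 94.0, 96.6 and 101 CPM in females. The highest males lay above the lowest females, so these ranges also overlapped, and the log2 fold change was -0.06 (SE 0.03) with an adjusted p of 0.342 in edgeR. Hnrnph3 had 0.04 (SE 0.04), and Hnrnph2, which lies on the X chromosome, -0.001 (SE 0.03), with adjusted p of 0.616 and 0.992 in edgeR. Without wild-type mouse Sample_4806, Hnrnph1 had 0.08, Hnrnpf 0.06 and Grsf1 -0.06, with adjusted p of 0.495, 0.589 and 0.444 in edgeR. Hnrnph3 then had 0.04 and Hnrnph2 -0.004, with adjusted p of 0.734 and 0.974 in edgeR. Over the 16 mice, the cortical score had a median of -0.55 in males and 0.59 in females. With this score as a covariate, the sex effect of Hnrnph1 was 0.06, the sex effect of Hnrnpf 0.07 and the sex effect of Grsf1 -0.07 on the log2 scale. Striatal projection neuron genes lay the other way by sex, with 10 of 10 above 0 and a median log2 fold change of 0.13, beside -0.005 over all genes. Of the 10, 4 were at an unadjusted p under 0.05 and 0 were called, where 2464 of all 16716 genes were at that level. Without mouse Sample_4806 their median was 0.10, with 3 at that level. The part of these genes in the sex values of the members was not tested.

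The genotype effect did not differ detectably between the sexes. The interaction, the genotype effect in males minus that in females, lay between -0.06 for Hnrnpf and 0.04 for Hnrnph1 on the log2 scale. Adjusted p in edgeR was at least 0.967 for all 5 members, where 0 of all genes (0%) were called, with 698 at an unadjusted p under 0.05. Without each mouse in turn that count was 464 to 1324, the lowest without wild-type mouse Sample_4672, the highest without congenic mouse Sample_4804, and 1073 without wild-type mouse Sample_4676. Hnrnpf averaged 106 ± 6.83 CPM in congenic males, against 109 ± 6.70 CPM in wild-type males (SD, n = 4 each). In mice labelled female, with Sample_4806 among them, the means were 102 ± 5.37 CPM for congenic animals and 102 ± 4.33 CPM for wild-type animals (SD, n = 4 each). Without each mouse in turn, Sample_4806 included, the interaction was -0.098 to -0.0094 for Hnrnpf and 0.019 to 0.085 for Hnrnph1.

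Use of the Hnrnph1 leader did not differ detectably between the genotypes. It took 1.53%, 1.64% and 2.04% of all Hnrnph1 bin counts in congenic mice, against 1.54%, 1.71% and 1.83% in wild-type mice (lowest, median and highest). The highest share belonged to congenic mouse Sample_4804, and the groups overlapped. The means were 1.71 ± 0.180% in congenic mice and 1.69 ± 0.109% in wild-type ones (SD, n = 8 each), a difference of 0.0194 percentage points, congenic minus wild-type, with p = 0.800 in an exact two-sided permutation test over all splits of the mice into 8 and 8.

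As a level, the leader held 8.24, 8.93 and 11.01 CPM of the exon table in congenic mice, against 7.77, 9.45 and 10.4 CPM in wild-type mice. The groups overlapped here too, and the exact permutation p was 0.876. With the 7 bins merged into 1 and set against the rest of Hnrnph1 in edgeR's diffSpliceDGE, the log2 fold change was 0.02 (SE 0.07) with a 95% interval of -0.11 to 0.14. The share in males was 1.65 ± 0.114% and in females 1.75 ± 0.160% (SD, n = 8 each, exact permutation p = 0.161). Without mouse Sample_4806 the share in females was 1.74 ± 0.169% (SD, n = 7, exact permutation p = 0.242).

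The 2 starts of the leader were used very unequally in all mice. The upstream bins 1 and 2 held 108 and 318 counts over all 16 mice. Bins 3, 4 and 5 held 545, 843 and 1014, bin 6 held 6517 and bin 7 held 9653 counts. Short bins are counted by every read that touches them, so counts per base are inflated for bins of a few bases. In congenic mice the upstream exons took 0.0370 ± 0.0112% of Hnrnph1 counts, against 0.0394 ± 0.0102% in wild-type mice (SD, n = 8 each, exact permutation p = 0.653). The proximal first exon, bins 3 to 6, took 0.804 ± 0.115% in congenic and 0.791 ± 0.0728% in wild-type mice (SD, n = 8 each, exact permutation p = 0.800). Bin 7 took 0.866 ± 0.0781% of counts in congenic mice and 0.858 ± 0.0611% in wild-type mice (SD, n = 8 each, exact permutation p = 0.812).

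**Figure D2:**
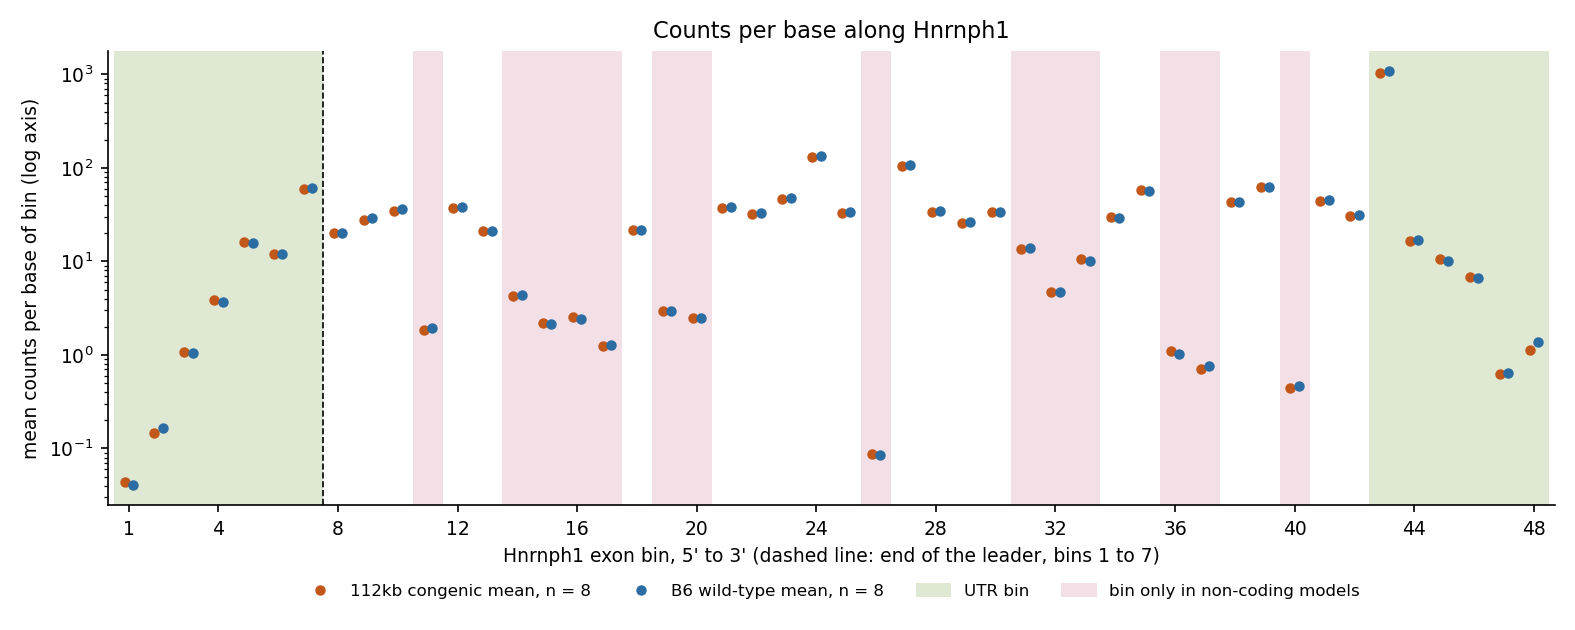
Mean counts per base of bin (vertical log axis) for each of the 48 Hnrnph1 bins in order from 5′ to 3′, in congenic mice, left point, and wild-type mice, right point (n = 8 each), with shading for untranslated bins and for bins held only by non-coding models. Counts climb along leader bins 1 to 5, the bins of introns lie below their coding neighbours, and the genotypes nearly coincide throughout; bins of a few bases, such as bin 43 of 2 bases, stand too high on this scale.

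Bin by bin, the fitted intervals were narrow for the deeper leader bins and wide for the shallow ones. The fit pools the spread over all bins of the gene as if the bins were independent. A read can touch more than a single bin, so these intervals may be too narrow. Bin 7 held 526, 581.5 and 728 counts per congenic mouse, against 500, 613.5 and 714 per wild-type mouse (lowest, median and highest). Its log2 fold change against the rest of Hnrnph1 was 0.01 with a 95% interval of -0.13 to 0.15. Bin 6 held 335, 387.5 and 484 counts in congenic mice, against 336, 409 and 482 in wild-type mice, and had 0.01 with an interval of -0.14 to 0.16. The groups overlapped in both bins.

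Bins 3, 4 and 5 had 0.06, 0.11 and 0.04 on the log2 scale, and their intervals reached from -0.29 to 0.42 at the widest. Bin 2 held 9, 18.5 and 34 counts in congenic mice, against 14, 20 and 33 in wild-type mice. Its value was -0.16 with an interval of -0.61 to 0.29. Bin 1 held 4, 6 and 12 counts in congenic mice, against 4, 6.5 and 10 in wild-type mice, and did not pass the filter on low counts. Tested without that filter it had 0.13 with an interval of -0.57 to 0.82. For the upstream exons, a change of the size of these intervals was not detectable at this depth. Reads were counted by the authors on a reference genome, and whether DBA/2J bases in the leader of congenic mice alter mapping there was not tested.

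Of 48 Hnrnph1 bins, 46 passed the filter. Their log2 fold changes by genotype lay between -0.16 and 0.11, with 25 above 0, and 0 were at an unadjusted p under 0.05. The smallest p, 0.291, belonged to bin 37, part of a non-coding transcript model, with -0.10 (SE 0.10). Over all 5 members 85 bins were tested and 0 were called. Over all genes, 0.000425% of 235478 bins and 0.00672% of 14875 genes were called by genotype in diffSpliceDGE. An unadjusted p under 0.05 was found for 0 of the 85 bins and for 2462 of the 235478 (1.05%), so few were to be found among the members at that share.

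**Figure D3:**
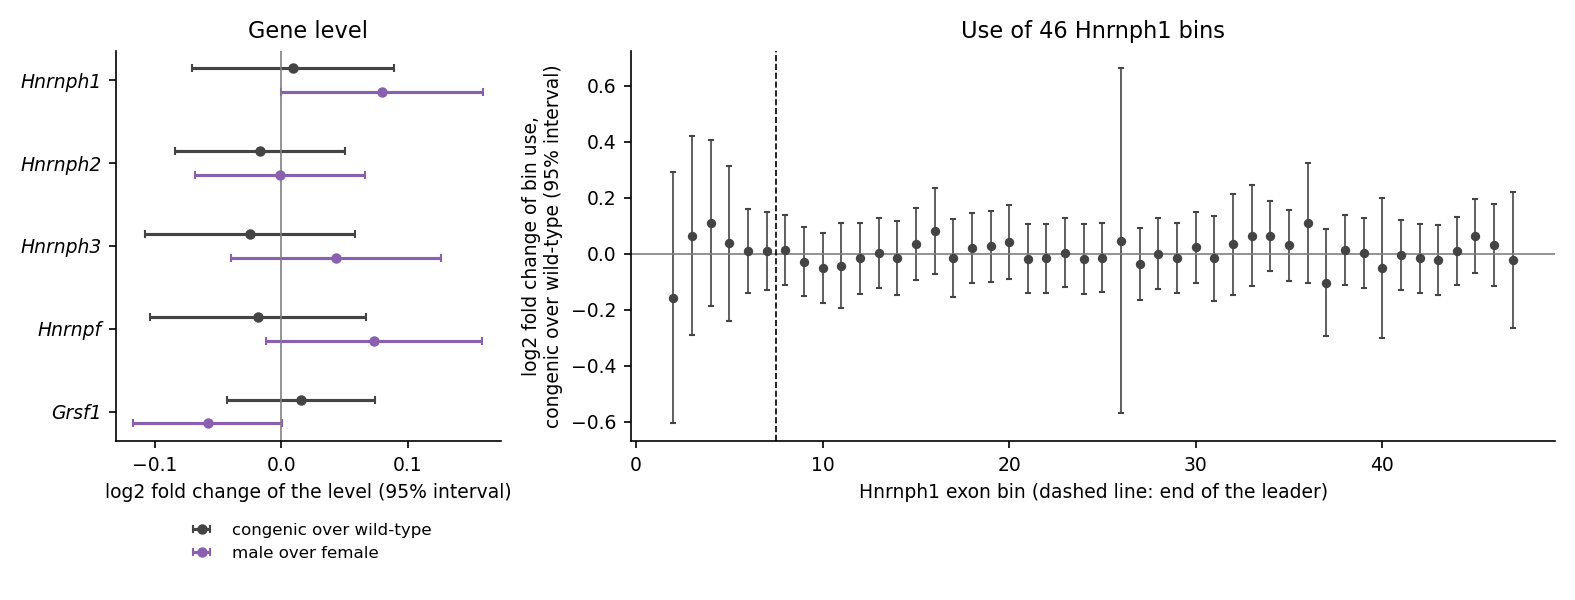
Left, log2 fold change of the level of each member by genotype (congenic over wild-type) and by sex (male over female), with points at the edgeR estimate and bars for the 95% interval. Right, log2 fold change by genotype of the use of the 46 tested Hnrnph1 bins in order from 5′ to 3′, with 95% intervals; every interval in both panels includes 0, and those of bin 26 and of leader bin 2 are the widest.

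Inside Hnrnph1, several introns that only non-coding transcript models count as exon carried reads. Bins 14 to 17 fill the longest of those covered whole, an intron of 1494 bases and held 35.8 counts per base over all mice, and bins 19 and 20 fill the next intron, of 939 bases, with 44.1 counts per base. Bin 11, an intron of 197 bases, held 30.3 counts per base, and bins 31 to 33, an intron of 91 bases, held 142, on a scale that inflates short bins. The coding bin 18 between them held 348 counts per base. By contrast bin 26, in an intron of 117 bases, held 1.38 counts per base. The stretches below are shown because their counts differ although all 3 are introns of the coding transcripts. They are NCBIM37 reference sequence, plus strand, 5′ to 3′, at chr11:50193467-50193586 and chr11:50195100-50195219, the first 120 bases of bins 14 and 19, and chr11:50196564-50196680, the whole intron of bin 26. Capitals mark runs of GGG or longer on the plus strand, the kind of sequence that hnRNP H/F proteins bind.
Start of bin 14: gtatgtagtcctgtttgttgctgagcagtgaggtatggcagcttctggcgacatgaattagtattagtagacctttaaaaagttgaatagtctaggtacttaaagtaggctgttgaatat
Start of bin 19: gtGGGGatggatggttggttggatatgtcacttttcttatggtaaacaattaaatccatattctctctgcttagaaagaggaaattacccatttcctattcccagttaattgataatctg
Intron of bin 26: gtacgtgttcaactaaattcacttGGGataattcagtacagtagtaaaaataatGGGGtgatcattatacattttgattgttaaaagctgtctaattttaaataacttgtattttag
The stretches hold 0, 1 and 2 runs in this order. Over the whole introns the runs numbered 0.54, 0.64 and 1.71 per 100 bases. They numbered 0.51 in the intron of bin 11 and 1.10 in that of bins 31 to 33, against 3.07 in the first intron of the coding transcripts, which no bin covers. Bins 36 and 37, in an intron of 723 bases with 0.55 runs per 100, held only 13.4 counts per base. Bin 40, with 1.69 runs per 100 within the bin, held 7.32 counts per base. It lies in a stretch of 1040 bases with 0.87 runs per 100. That stretch also holds bin 41, a coding bin of other transcript models, so it is not an intron in all of them. A relation of runs to counts was not tested. A run is a description of letters, and binding was not measured.

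The reads in the introns of bins 14 to 17 and of bins 19 and 20 did not differ detectably by genotype. Together they took 7.43%, 8.57% and 9.55% of Hnrnph1 counts in congenic mice, against 7.53%, 8.41% and 9.45% in wild-type mice. The groups overlapped, and the exact two-sided permutation p was 0.660. Across mice, neither share was detectably related to the level of Hnrnph1. Pearson's r with log2 CPM was -0.02 for the leader share (rho 0.02, permutation p = 0.937) and 0.14 for the intron share (rho 0.06, permutation p = 0.605; adjusted over both, 0.937 each). Without the 2 mice farthest from the median these were -0.35 and 0.25.

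**Figure D4:**
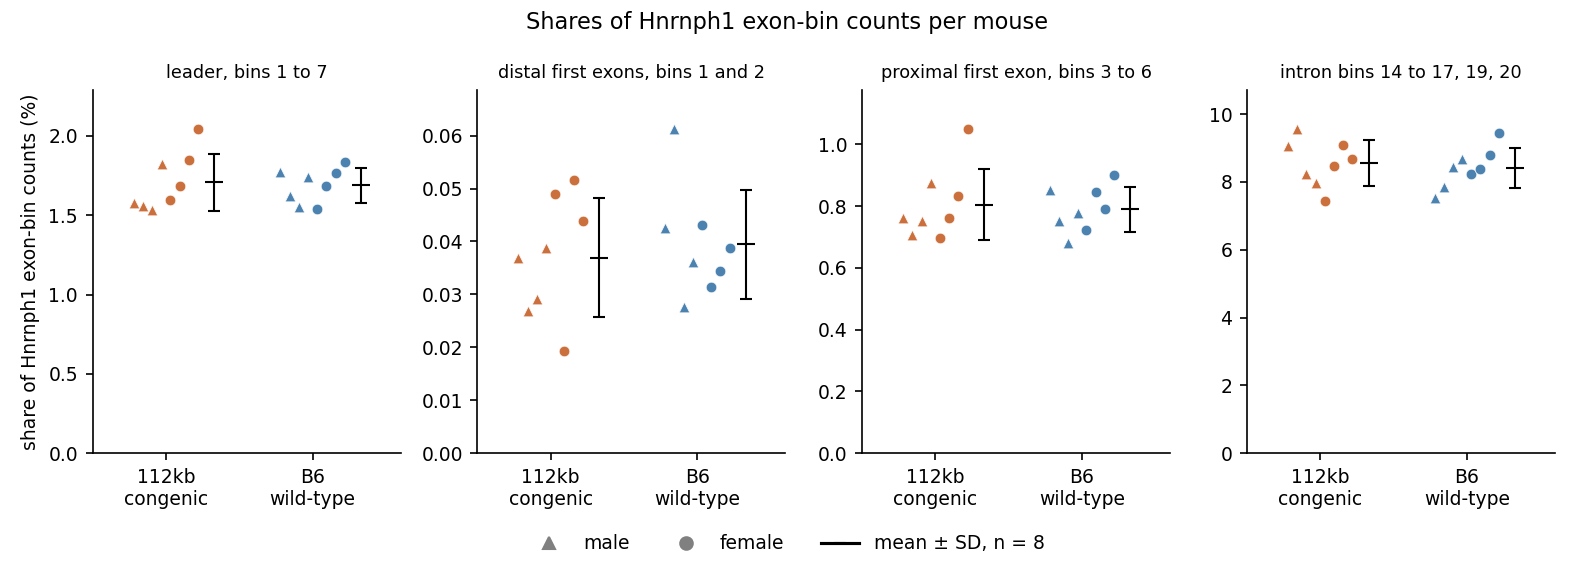
Share of Hnrnph1 exon-bin counts (percent, vertical axis from 0) in the leader, its distal and proximal first exons and the intron bins, for each congenic mouse, left, and wild-type mouse, right. Triangles are males, circles are mice labelled female, and bars are the mean and 1 SD (n = 8); the leader takes 1.53 to 2.04% in congenic and 1.54 to 1.83% in wild-type mice, and the groups overlap in every panel.

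Bin use by sex was also below the threshold in all members. Of the 85 bins, 0 were called, where 0.0157% of all bins and 0.128% of all genes were called. An unadjusted p under 0.05 was found for 6 of the 85 (7.06%) and for 7688 of 235478 bins over all genes (3.26%). The count of 6 was 2 to 8 without each mouse in turn. It was 3 without wild-type mouse Sample_4806, 3 without Sample_4734 or congenic mouse Sample_4731, and 2 without congenic mouse Sample_4804. It rose to 8 without congenic mouse Sample_4677 and to 7 without congenic mouse Sample_4737. The smallest p, 0.00400, belonged to bin 46, of 68 bases in the 3′ untranslated region of Hnrnph1, with -0.22 (SE 0.07), male over female, and an adjusted p of 0.99997 in edgeR. The others were bins 11, 37 and 45 of Hnrnph1, bin 2 of Hnrnpf with -0.30 (SE 0.14, p = 0.0364) and bin 12 of Hnrnph2 with -0.16 (SE 0.07, p = 0.0242). Without mouse Sample_4806 bins 46 and 11 of Hnrnph1 had -0.19 each and bin 12 of Hnrnph2 -0.15, and these were the 3 that stayed under an unadjusted p of 0.05. As whole genes, the Simes p by sex was 0.184 for Hnrnph1, 0.182 for Hnrnpf, 0.266 for Hnrnph2, 0.394 for Hnrnph3 and 0.762 for Grsf1, and without mouse Sample_4806 the smallest was 0.274, for Hnrnph3.

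Hnrnph2 and Hnrnpf carry their coding sequence in a single exon, so their other bins describe untranslated exons. Hnrnph2 lies at chrX:131135718-131141599, plus strand, with 13 bins. Among its bins of at least 30 bases the most used per base was bin 7, an untranslated exon, with 293 counts per base, and its first bin held 0.826 per base. Among 11 tested bins the smallest genotype p was 0.124, for bin 4 in the leader, with 0.13 (SE 0.08). Bin 4 held 270 ± 45.9 counts in congenic mice, against 249 ± 37.0 in wild-type mice (SD, n = 8 each), within each other's spread.

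Hnrnpf lies at chr6:117850358-117875639, plus strand, with 7 bins. Its untranslated bin 6 held 152 counts per base and its first bin 0.329. Of 5 tested bins the smallest genotype p was 0.769, for bin 3 with 0.03 (SE 0.10). Bin 3 overlaps 4933440N22Rik on the opposite strand, so its counts may include reads of that gene. Hnrnph3 lies at chr10:62477412-62486965, minus strand. Its 5 bins with counts were all tested, from 1.36 counts per base in bin 21 to 91.1 in bin 18, and bin 17 had the smallest genotype p of 0.390, with 0.06 (SE 0.07).

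Grsf1 lies at chr5:89088473-89105196, minus strand, with 24 bins. Its coding bin 12 held 242 counts per base, and bin 11, found only in a non-coding model, 0.360. Of 18 tested bins the smallest genotype p was 0.418, for bin 1, the 10 bases at the 3′ end, with 0.16 (SE 0.19). This bin held 30.5 ± 7.48 counts in congenic mice, so its value rests on few reads. The Simes p by genotype was at least 0.707 for each of the 5 members in diffSpliceDGE.

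Across the 16 mice, the 4 hnRNP H and F genes correlated positively with each other and negatively with Grsf1 in the gene table, but no pair passed correction. All 6 pairs among Hnrnph1, Hnrnph2, Hnrnph3 and Hnrnpf had a positive Pearson's r of log2 CPM, from 0.45 to 0.65. Between 0.393% and 18.4% of genes with a mean of at least 10 CPM correlated as highly with a member of the pair. All 4 pairs with Grsf1 had a negative r, from -0.57 to -0.06. Of the 10 pairs, 0 had an adjusted permutation p under 0.05, while 3 passed without congenic mouse Sample_4737 and 4 without wild-type mouse Sample_4753. The values share libraries and scaling between genes.

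Hnrnph3 and Hnrnpf had the largest r, 0.65 (rho 0.58, permutation p = 0.00787, adjusted over 10 pairs 0.0702). Without the 2 mice farthest from the median of Hnrnph3 it was 0.48. Of 10177 genes with a mean of at least 10 CPM, 0.393% correlated as highly with Hnrnph3, while 4.68% correlated as highly with Hnrnpf. Hnrnph2 and Hnrnph3 had 0.59 (rho 0.51, adjusted permutation p = 0.0702), which was 0.38 without the 2 farthest mice. Of the genes compared, 1.30% correlated as highly with Hnrnph2 and 0.894% with Hnrnph3. Hnrnph1 had 0.52 with Hnrnph2 (rho 0.44), 0.50 with Hnrnph3 (rho 0.46) and 0.49 with Hnrnpf (rho 0.49), with adjusted permutation p of 0.0753, 0.0790 and 0.0790. Without the 2 farthest mice these were 0.35, 0.26 and 0.45.

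Hnrnpf and Grsf1 had -0.57 (rho -0.66, adjusted permutation p = 0.0702) and -0.44 without the 2 farthest mice. Hnrnph3 and Grsf1 had -0.53 (rho -0.54, adjusted permutation p = 0.0753), and Hnrnph1 and Grsf1 -0.39 (rho -0.58, adjusted permutation p = 0.147). The sign for Grsf1 depended on the table. From exon-table counts its 4 pairs had -0.09 with Hnrnph1, 0.47 with Hnrnph2, 0.11 with Hnrnph3 and -0.02 with Hnrnpf, while the pairs among the H and F genes kept 0.41 to 0.67. The levels of Grsf1 in the 2 tables correlated with r of 0.80 over the mice, and those of Hnrnph1 with 0.95.

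Within a sex, the values of r differed widely. Hnrnph3 and Hnrnpf had 0.93 in the 8 males and -0.18 in the 8 mice labelled female, and Hnrnph1 and Grsf1 -0.81 in males and 0.43 in females. Without mouse Sample_4806 these were -0.14 and 0.45 in the other 7 females. The difference between the sexes was not tested. With genotype and sex taken out of both genes, Hnrnph1 and Hnrnph2 had the largest r, 0.66 (permutation p within the 4 groups = 0.00863, adjusted 0.0863), and 0 of 10 pairs passed, though this pair passed without congenic mouse Sample_4739 or Sample_4804. Hnrnph3 and Hnrnpf then had 0.58, and Hnrnph1 and Grsf1 -0.02. With the cortical neuron score also taken out, Hnrnph1 and Hnrnph2 had 0.79 with an adjusted permutation p of 0.0146, the only pair of 10 to pass.

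**Figure D5:**
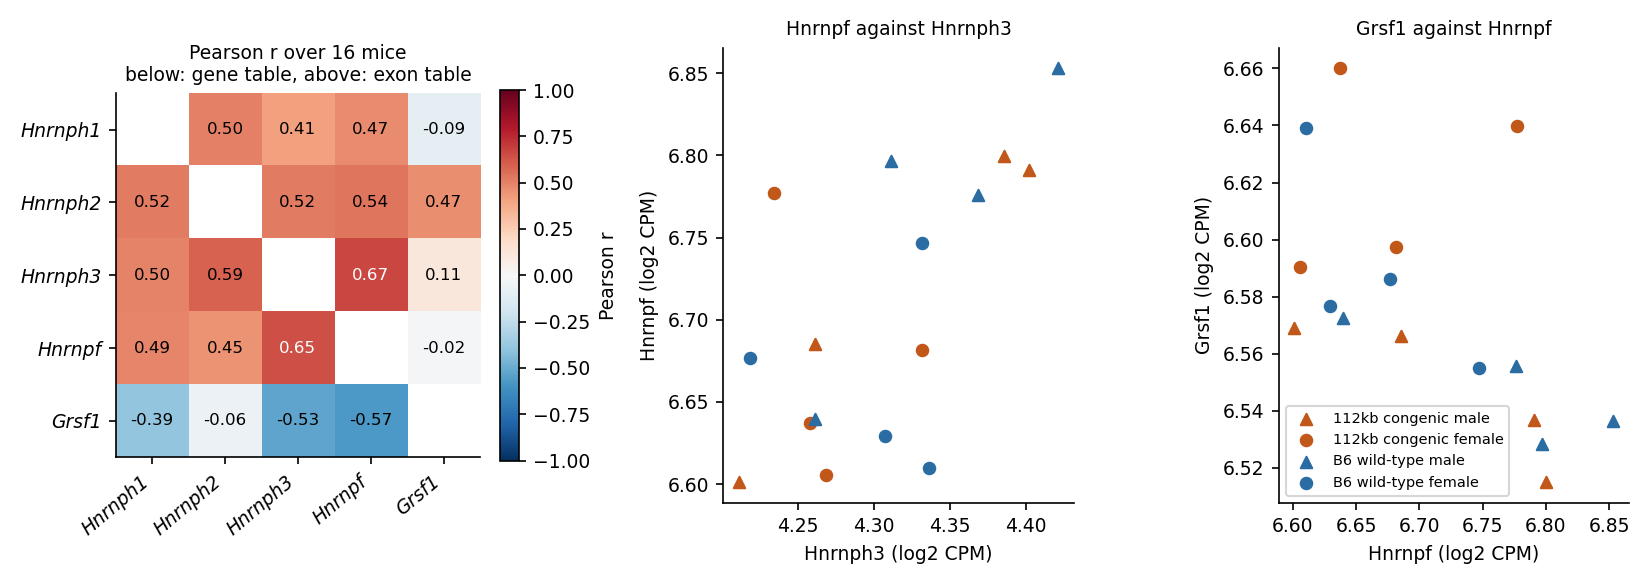
Left, Pearson's r of log2 CPM between members over the 16 mice, from the gene table below the diagonal and from the exon table above it. Middle and right, log2 CPM of Hnrnpf against Hnrnph3 and of Grsf1 against Hnrnpf for each mouse, by genotype and sex; in the gene table these pairs have r of 0.65 and -0.57, against 0.67 and -0.02 by exon counts.

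Each member had genes whose levels followed it more closely than any other member did. Over the 16 mice and 10172 genes compared, those with the highest r to Hnrnph1 were Sfpq, a splicing factor of paraspeckles, with 0.90, Tra2a, a splicing activator, with 0.90, and Ccar1, a transcriptional coactivator, with 0.88. Hnrnpf was followed by Lemd3, an inner nuclear membrane protein, with 0.91, Fam134c with 0.90 and Tars, the threonyl-tRNA synthetase, with 0.90. Hnrnph2 was followed by Prkar1a, a regulatory subunit of protein kinase A, with 0.84, Kif3a, a kinesin motor, with 0.81, and Hspa4, a heat shock protein, with 0.78.

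Hnrnph3 was followed by Lyar with 0.84, Nynrin with 0.76 and Cbx1, a heterochromatin protein, with 0.73. Grsf1 was followed by Omg, a myelin glycoprotein, with 0.84, Gria3, an AMPA receptor subunit, with 0.84, and Eltd1, an endothelial receptor, with 0.80. These genes were taken as the highest of all those compared, so their r values are a description without a test.

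A score of 27 other hnRNP genes, the centred mean log2 CPM, had r of 0.81 with Hnrnpf, 0.58 with Hnrnph1, 0.56 with Hnrnph2, 0.50 with Hnrnph3 and -0.51 with Grsf1 over the 16 mice, given as a description with no test. Of these 27 genes 0 were called by genotype, with 11 above 0 and a median log2 fold change of -0.01, beside 0.001 over all genes. Syncrip had the smallest p, with 0.05 (SE 0.04, adjusted p 0.999 in edgeR). By sex 0 were called and 19 were above 0, with a median of 0.03 beside -0.005 over all genes. An unadjusted p under 0.05 by sex in edgeR was found for 7 of the 27, and for 2464 of all 16716 genes. Without mouse Sample_4806 it was found for 5 of the 27. Hnrnpm, a splicing regulator, had the smallest p by sex, with 0.16 (SE 0.05, adjusted p 0.190 in edgeR).

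Reported splicing targets of hnRNP H and F were tested for level and exon use. Of 12 such genes 0 were called by genotype, with 6 above 0 and a median of -0.001 beside 0.001 over all genes. The smallest p belonged to Oprm1, the mu opioid receptor, with -0.26 (SE 0.12, adjusted p 0.999 in edgeR). For exon use by genotype 0 of the 12 were called. The smallest Simes p was 0.489, for Bcl2l1, whose long and short forms of Bcl-x are a known target of hnRNP H and F in human cells. By sex 0 were called for level, with Src, a tyrosine kinase, at 0.11 (SE 0.03, adjusted p 0.186 in edgeR). For exon use by sex 0 were called, with a smallest Simes p of 0.0246 for Grin1, an NMDA receptor subunit (adjusted p 0.99998 in edgeR).

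Partners of Grsf1 in mitochondrial RNA metabolism were likewise not called. Of 18 genes 0 were called by genotype, with 11 above 0 and a median of 0.009 beside 0.001 over all genes. Fastkd5, which takes part in processing of mitochondrial transcripts, had the smallest p by genotype, with 0.11 (SE 0.09, adjusted p 0.999 in edgeR), and by sex, with 0.24 (SE 0.09, adjusted p 0.245 in edgeR). For exon use 16 of them were tested by genotype and 0 were called. Of the 27 other hnRNP genes 25 were tested for exon use by genotype with 0 called. Hnrnpc had the smallest Simes p there, 0.0782, and Hnrpdl by sex, with 0.00216 and an adjusted p of 0.413 in edgeR. Without mouse Sample_4806, 0 genes of these 3 lists were called by sex for level or for exon use in edgeR. Src then had 0.09 (SE 0.03, adjusted p 0.358 in edgeR) and Hnrpdl a Simes p of 0.00335 with an adjusted p of 0.598 in edgeR. For level, Hnrnpr replaced Hnrnpm as the gene of smallest p, with -0.12 (SE 0.04, adjusted p 0.290 in edgeR). Slirp replaced Fastkd5, with 0.19 (SE 0.07, adjusted p 0.367 in edgeR). Among the splicing targets, Src replaced Grin1 for exon use, with a Simes p of 0.117.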

How the data were processed

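RNA of 16 mice was sequenced on 3 lanes each, and the authors deposited whole-number read counts per gene and per exon bin, not normalized. Per the submitters' processing notes, limma 3.22.7, edgeR 3.8.6, HTSeq 0.6.1p1 and FastQC 0.10.1 were used, with mm9 and mm10 as builds. No aligner or strand setting is given in the sources used here. Reads are described both as 50 bp single-end and as 100 bp paired-end, so a count is called a count. Exon bins rebuilt from the NCBIM37 annotation gave the coordinates.

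The 48 runs were summed per mouse. Genes and bins were kept by edgeR's filter on genotype-by-sex groups (minimum count 10, total 15) and scaled by TMM. Levels were tested with edgeR 4.0.16's robust quasi-likelihood test with Benjamini-Hochberg adjustment over all genes, and exon use with its diffSpliceDGE, in R 4.3.3. DESeq2 1.42.0 and limma 3.58.1 were alternatives. CPM were computed from the counts, with a prior of 2 on the log scale. Shares were tested by exact permutation of mice, and correlations by 100000 permutations in Python 3.11.15 with scipy 1.17.1. Tests are two-sided, and intervals for bins are those implied by p. The scripts were tested on simulated counts with known changes.

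The rule for named genes took the members, each Hnrnph1 leader bin, each member's bin of smallest p and bins of highest and lowest count per base (at least 30 bases), the 3 genes of highest r to each member, the called genes of each list or its gene of smallest p, neighbours that overlap a member, and Xist for mouse Sample_4806. Members and lists were chosen with earlier results of these data known. A single result under the rule for named genes is not reported here. Comparisons by sex without mouse Sample_4806 for the leader share, the lists and the correlations, the first exons singly, the intron share and levels from coding bins were chosen after seeing the data.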

Additional observations from a re-analysis of the deposited data

Results flagged for a closer look

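Values by mouse were screened in groups of 8 for a mouse far from the others, over 49 sets of values by group. Chance flags about 5% of such sets. 5 were flagged, from 3 kinds of value.

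Wild-type mouse Sample_4806, labelled female, stood apart in Xist with 2.64 CPM, against 951 to 1549 CPM in the other 7 mice labelled female. Among mice labelled male, wild-type mouse Sample_4672 had 17.6 CPM and the others had 1.35 to 3.34 CPM.

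Congenic mouse Sample_4804 had 0.396% of Hnrnph1 counts in bins 1 to 5, and stood apart both among congenic mice and among females. Its total leader share, 2.04%, was also the highest of the 16 mice. This mouse also had the highest cortical neuron score, 1.02, and the part of tissue makeup in its share was not tested.

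Wild-type mouse Sample_4712 had 0.0612% of Hnrnph1 counts in the upstream bins 1 and 2, and stood apart both among wild-type mice and among males. This share rests on 40 counts.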

How the results depend on the processing

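No paired analysis was possible because the congenic and wild-type mice share no replicate numbers in the labels. Over 1395 alternative values of 69 results, 1235 were alike. For tests this means the same direction and side of the threshold. For counts it means a ratio of at most 1.5, and for levels a shift within the SD over mice.

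The genotype effect, congenic over wild-type, turned for Hnrnph1 to -0.0057 with the cortical score as a covariate, for Hnrnph2 to 0.0036 in lane 4 alone and for Hnrnph3 to 0.031 in lane 5 alone. Leaving out each mouse in turn gave -0.0048 to 0.023 for Hnrnph1, -0.030 to -0.0033 for Hnrnph2, -0.038 to -0.0091 for Hnrnph3, -0.035 to 0.0019 for Hnrnpf and 0.0095 to 0.026 for Grsf1. The sex effect of Hnrnph2, -0.001 on the log2 scale, turned to 0.0012 with DESeq2 size factors and in DESeq2, 0.00070 with no filter, 0.010 with the cortical score and 0.011 in lane 5, and spanned -0.015 to 0.0093 without each mouse. The interaction turned for Hnrnph3 to -0.0013 with no filter, -0.0014 in limma-voom and -0.0065 in lane 5, and in lane 3 for Hnrnpf to 0.0074 and for Grsf1 to 0.0069. Without each mouse it spanned -0.025 to 0.044 for Hnrnph3 and -0.00037 to 0.056 for Hnrnph2.

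Genes called by sex numbered 13 with the cortical score, 13 in lane 4, 259 in DESeq2, and 12 to 76 without each mouse, in place of 23. Genes called for exon use by genotype numbered 0 with a minimum of 30, in limma diffSplice and in lanes 3, 4 and 5, and 0 to 1 without each mouse. By sex they numbered 52 in limma diffSplice, 0, 6 and 5 in lanes 3, 4 and 5, and 7 to 42 without each mouse. The called members numbered 0 throughout.

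Single lanes turned the log2 genotype values of Hnrnph1 bins 2 (0.17, lane 4), 3 (-0.0049, lane 5), 5 (-0.0084, lane 3), 6 (-0.041, lane 5), 7 (-0.039 and -0.024, lanes 3 and 5) and 37 (0.0042 and 0.040, lanes 3 and 5), of Hnrnpf bin 3 (-0.090, lane 4) and of Grsf1 bin 1 (-0.27, lane 4). By sex, Hnrnpf bin 2 had 0.0047 in lane 5. Without each mouse, bins 2 to 7 of Hnrnph1 spanned -0.31 to 0.0025, -0.0027 to 0.16, -0.020 to 0.18, -0.12 to 0.11, -0.029 to 0.037 and -0.016 to 0.035, and Hnrnpf bin 3 -0.0055 to 0.057.

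The difference in leader share was -0.00064 points for bins 1 to 3, -0.0025 for bins 1 and 2, -0.0229 and -0.0174 in lanes 3 and 5, and -0.0282 to 0.0443 without each mouse. The difference in leader level was -0.0021 CPM for bins 1 to 3, -0.013 for bins 1 and 2, -0.163 and -0.147 in lanes 3 and 5, and -0.148 to 0.247 without each mouse. The smallest exact permutation p over all alternatives of the share was 0.298. The intron share differed by -0.021 points in lane 3 and 0.0015 to 0.304 without each mouse. For bins 1 and 2 depth is the limit.

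Correlated pairs that passed numbered 1 with genotype, sex and cortical score taken out, and 0 to 4 without each mouse (3 without congenic mouse Sample_4737, 4 without wild-type mouse Sample_4753). With genotype and sex taken out they numbered 0 to 1. Hnrnph2 and Grsf1 had r of 0.47 from exon-table counts, 0.047 with the cortical score taken out, 0.037 without the 2 farthest mice and -0.27 to 0.066 without each mouse, and Hnrnph3 and Grsf1 had 0.11 from exon-table counts. With genotype and sex taken out, leaving out each mouse gave -0.28 to 0.13 for Hnrnph1 and Grsf1 and -0.27 to 0.12 for Hnrnph2 and Grsf1. Levels per kb from coding bins lengthened by 49 and by 99 bases were 164 and 125 for Hnrnph1, 45.5 and 44.1 for Hnrnph2, 27.4 and 21.5 for Hnrnph3, 12.1 and 11.8 for Hnrnpf, and 37.6 and 29.3 for Grsf1. Hnrnph3 had 25.6 from gene-table counts over the bases with counts in the exon table.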
